A study of Homo sapiens with 6 samples.

Results

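The 7 genes described here are CD44, CD24, PROM1 (which encodes CD133), EPCAM, ALCAM (CD166), AMIGO2 and DCLK1, a set of markers and adhesion molecules tied to tumour-initiating cells of the colon. They were found by gene symbol among the 14884 genes that could be named on the array. All 7 were measured, each by 1 feature of the 53616 in the table. The samples were spheroids of SW480, an established colorectal cancer line labelled as from a primary tumour, and of SW620, an established colorectal cancer line labelled as from a lymph node metastasis, with 3 arrays per line and no treatment or genetic change named for either. Both lines grew as spheres in medium without serum and with added growth factors, a culture meant to favour cells that can start a tumour. Per the series' design text, replicates were technical, so the p-values below measure the spread between repeat arrays and not between cultures. Neither sorted cells nor adherent cultures were among the arrays, so a marker's level is that of all the cells in the spheroids, and fewer cells carrying a transcript cannot be told apart from less of it per cell. The purpose stated for the study was to compare this tumour-initiating compartment between the lines.

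Tumour-initiating cells of colorectal cancer have been sorted mainly by antibodies to CD133, CD44, CD166, EpCAM and CD24. CD44 binds hyaluronan, CD24 is a short mucin-like protein held by a GPI anchor, and CD133 is a pentaspan protein of membrane protrusions. EpCAM and ALCAM join cells to each other, AMIGO2 is an adhesion molecule with leucine-rich repeats, and DCLK1 is a microtubule-associated kinase inside the cell that marks tuft cells of the gut. Antibodies read protein and, for CD44 and CD133, particular splice or sugar forms, whereas the arrays read summed RNA.

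The DNA upstream of the 5 members with differences above 4-fold is shown because CD44 and other crypt genes are read in the colon through TCF/LEF factors of the Wnt pathway, and epithelial genes through ZEB and Snail factors. RefSeq sequences (GRCh38.p14), running from 250 bases before to 50 after an annotated start, matched 6 of the 7 members at 14 starts, and EPCAM had no entry. CD44 has 1 such start, CD24 has 3, PROM1 4, DCLK1 3 and AMIGO2 2, counted in the direction of transcription, some of these windows overlap, and the array does not tell which start was used. Both strands were searched for CTTTGAT, a TCF/LEF core, for CACCTG, an E-box core bound by ZEB and Snail factors, and for GGGCGG, a GC box. Capitals mark these matches, none of which overlap in the 5 sequences printed. For CD24 and AMIGO2 start 1 is printed. For PROM1 and DCLK1 the window printed is the one that held the TCF/LEF core, and their other windows held no such core. The printed window is therefore not taken as the main promoter of either gene.
CD44 promoter, chr11:35138921-35139220, plus strand: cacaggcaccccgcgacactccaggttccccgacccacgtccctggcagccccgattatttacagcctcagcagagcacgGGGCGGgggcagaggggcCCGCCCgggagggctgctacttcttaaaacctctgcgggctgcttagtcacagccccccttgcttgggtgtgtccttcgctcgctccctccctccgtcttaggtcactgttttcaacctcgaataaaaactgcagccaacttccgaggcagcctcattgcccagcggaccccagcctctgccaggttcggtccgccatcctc
CD24 promoter, start 1, chr6:106975578-106975877, minus strand: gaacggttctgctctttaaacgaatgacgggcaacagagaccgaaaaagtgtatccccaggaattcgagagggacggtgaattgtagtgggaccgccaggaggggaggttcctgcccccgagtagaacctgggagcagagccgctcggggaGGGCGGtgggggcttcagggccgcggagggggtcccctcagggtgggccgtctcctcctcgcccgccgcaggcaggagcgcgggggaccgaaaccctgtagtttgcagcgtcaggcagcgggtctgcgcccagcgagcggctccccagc
PROM1 promoter, start 4, chr4:16076069-16076368, minus strand: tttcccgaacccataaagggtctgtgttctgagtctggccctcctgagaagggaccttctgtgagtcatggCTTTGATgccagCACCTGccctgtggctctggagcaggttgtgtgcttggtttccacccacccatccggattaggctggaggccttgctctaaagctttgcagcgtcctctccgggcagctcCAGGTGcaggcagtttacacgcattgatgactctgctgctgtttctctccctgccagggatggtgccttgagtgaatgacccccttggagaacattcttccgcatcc
DCLK1 promoter, start 3, chr13:35855618-35855917, minus strand: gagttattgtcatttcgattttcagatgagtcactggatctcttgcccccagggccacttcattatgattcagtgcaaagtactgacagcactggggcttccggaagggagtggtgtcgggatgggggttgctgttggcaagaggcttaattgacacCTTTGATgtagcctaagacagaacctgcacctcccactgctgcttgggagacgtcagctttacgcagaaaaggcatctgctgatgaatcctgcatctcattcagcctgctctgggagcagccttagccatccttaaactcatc
AMIGO2 promoter, start 1, chr12:47079910-47080209, minus strand: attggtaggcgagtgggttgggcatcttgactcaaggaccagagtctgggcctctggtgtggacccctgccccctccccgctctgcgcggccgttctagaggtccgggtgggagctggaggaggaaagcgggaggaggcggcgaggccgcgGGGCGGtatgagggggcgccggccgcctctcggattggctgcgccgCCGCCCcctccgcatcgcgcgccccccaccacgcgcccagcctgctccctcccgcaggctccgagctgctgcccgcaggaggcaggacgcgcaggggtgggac

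The TCF/LEF core stood in 2 of the members' 14 windows, against 2.62% of 35116 promoter windows of this length. These windows were start 4 of PROM1, where the core began 179 bases before the start, and start 3 of DCLK1, where it began 93 bases before. In PROM1 it was followed by an E-box core 167 bases before the start and another at 57 bases. PROM1 was higher and DCLK1 lower in SW620 (values below), so a gene from each direction carried the same letters. No TCF/LEF or E-box core was found in the CD44 window, which held a GC box 170 bases and another 152 bases before the start. The window of CD24 start 1 held a GC box 99 bases before the start, and that of AMIGO2 start 1 held GC boxes 99 and 53 bases before it. E-box cores were found in 5 of the 14 windows and in 20.6% of all windows, and GC boxes in 9 of 14 and in 45% of all. The 14 windows are not independent. Those of AMIGO2 overlap and hold the same GC boxes, and starts 1, 3 and 4 of PROM1 are among the E-box windows. A match describes the letters and does not show that a factor binds.

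Most of the markers differed strongly between the lines, and not in 1 direction. CD24, PROM1 and AMIGO2 were several-fold higher in SW620, CD44 and DCLK1 were several-fold lower, ALCAM was slightly higher on a dim feature, and EPCAM was high in both lines with no difference past the test. In limma's moderated test, adjusted over all 14884 genes, 6 of the 7 passed at 0.05, with 4 higher and 2 lower in SW620. Among all genes 35.6% passed, 16.0% higher and 19.5% lower. With genes below the median feature left out, 5059 of 9475 passed. Brighter genes were thus called more often, and the shares of gene lists below are to be read beside both. At a difference of at least 4-fold, 5 of the 7 passed, against 1.38% of all genes. The arrays of the lines did not overlap for 6 of the 7, against 45.7% of all genes. The members were named with earlier results of these arrays known, so these shares describe them and are not evidence that such markers differ more than other genes.

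**Figure D1:**
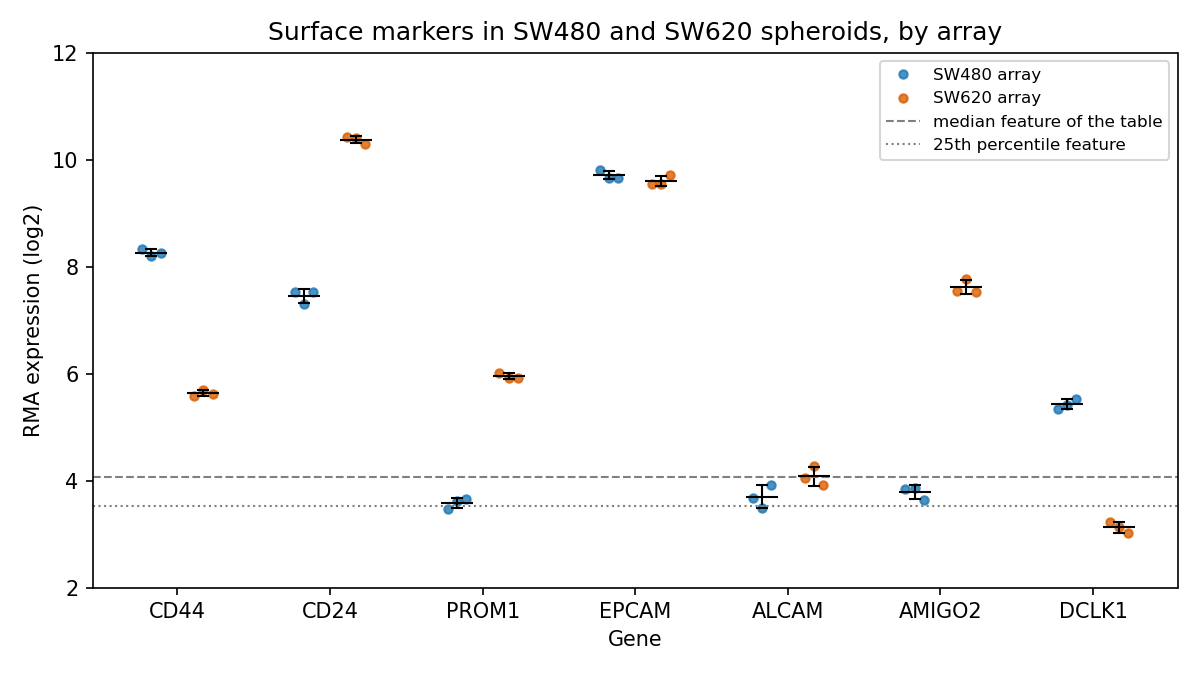
RMA expression on the log2 scale (vertical axis) of the 7 genes (horizontal axis) in each array, with SW480 in blue and SW620 in orange; bars are the mean and SD of 3 arrays, and grey lines the median and 25th percentile feature of the table. The arrays of the lines lie far apart for CD44, CD24, PROM1, AMIGO2 and DCLK1, touch for ALCAM and overlap for EPCAM.

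Across the arrays, features not named here included, the values ran from 1.99 to 13.9 on the log2 scale, and the array medians from 4.04 to 4.07. The correlation across features, which are not independent replicates, was 0.988 to 0.992 for arrays of the same line and 0.963 to 0.965 between lines. No pair of arrays held identical values. Of 13 colon epithelium markers 10 were measured, the member EPCAM among them. Their mean log2 level ran from 6.59 to 6.68 in the SW480 arrays and from 6.86 to 6.93 in those of SW620. Of these 4 rose in SW620, namely CEACAM5 by 2.42, VIL1 by 0.62, KRT19 by 0.51 and KRT8 by 0.40, and 1, the intestinal factor CDX2, fell by 1.54. The share called was 50%, against 35.6% of all genes and 5059 of 9475 with genes below the median feature left out. KRT18 was bright in both lines, and KRT20 and CDX1 were below the median feature (4.065) in both. Of 6 measured leukocyte markers, which matter here because blood cells carry CD44 and CD24 too, 4 were below the median feature in both lines. Above it were LAPTM5, which fell from 6.25 in SW480 to 5.84 in SW620, and CSF1R, at 4.54 and 4.60 and not past the test. The mean level of this list ran from 4.24 to 4.28 in SW480 and from 4.14 to 4.24 in SW620. All but 1 of 6 endothelial markers were below the median feature in both lines (list means from 3.72 to 3.81 over all arrays), and 0 of the 6 passed limma's test or had an unadjusted p below 0.05. The fibroblast list held 2 measured genes, DCN, dim in both lines, and LUM, which rose from 4.73 to 7.95, so its mean went from between 3.74 and 4.11 to between 5.55 and 5.67. Of 5 neural markers 1, SYT1, rose, and the list mean ran from 4.26 to 4.41 in SW480 and from 4.56 to 4.66 in SW620. The shares called were 16.7% of the leukocyte, 50% of the fibroblast and 20% of the neural markers, against 35.6% of all genes. The part of LUM- or SYT1-expressing cells in the results below was not tested.

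CD44, the main receptor for hyaluronan, was one of the members that fell, beside DCLK1. Its log2 level was 8.33, 8.19 and 8.27 in the SW480 arrays and 5.59, 5.70 and 5.63 in the SW620 arrays. Every SW480 array was high and every SW620 array low, and the nearest arrays of the lines were 2.50 apart. The means were 8.26 ± 0.0677 (SD, n = 3) and 5.64 ± 0.0548 (n = 3), a difference of -2.62 (standard error 0.0829, 95% interval -2.80 to -2.44) or 6.17-fold, with an adjusted p of 7.02e-11 in limma. CD44 had the 54th largest fall of the 14884 genes. Both means lay above the median feature, so the fall was measured from a bright to a still measurable level. The feature sums the standard and the variant forms of CD44, which differ by the exons kept in splicing, and cannot say which form fell.

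Genes of the hyaluronan system changed in both directions. Of 20 genes that make, cut or bind hyaluronan, 16 were measured, 5 rose, 2 fell and 9 did not pass. The hyaluronan synthases HAS3 and HAS2 rose by 1.02 and 0.73 on the log2 scale, and CEMIP, which takes part in breaking hyaluronan down, rose by 0.90. Of the other hyaluronan receptors listed, HMMR fell by 0.34 and LAYN rose by 0.28, while LYVE1, STAB1 and STAB2 differed by 0.12, 0.0667 and 0.0783 and did not pass (adjusted p = 0.291, 0.587 and 0.570 in limma). LAYN, LYVE1, STAB1 and STAB2 were below the median feature in both lines, LYVE1 and STAB2 even below the 25th percentile feature. In all, 8 of the 16 measured hyaluronan genes were below the median feature in both lines. Among 9 measured cytoskeletal linkers and co-receptors of CD44, 4 rose and 1 fell. MET, the receptor for hepatocyte growth factor, for which CD44 variants can act as a co-receptor, rose by 1.65, ezrin (EZR), which ties CD44 to actin, rose by 0.90, and the membrane protease MMP14, which can cut CD44, fell by 0.71. The medians were 0.11 and 0.17, against 0.0132 for all genes, and 43.8% and 55.6% of the measured genes were called, against 35.6% of all genes. Of the 9 linkers and co-receptors, 0 were below the median feature in both lines. Their share is near that of all genes with dim ones left out (5059 of 9475).

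ESRP1 and ESRP2, splicing factors that set the epithelial pattern of CD44 exons, were higher in SW620. In SW620 compared with SW480, ESRP1 rose from 7.66 ± 0.0802 (SD, n = 3) to 8.66 ± 0.0699 (n = 3) and ESRP2 from 6.80 ± 0.0400 to 7.77 ± 0.163 (n = 3 each). RBM47, another epithelial RNA-binding protein, rose by 0.84. Of 13 measured regulators on this list 8 rose and 1, TRA2A, fell (69.2% called, against 35.6% of all genes), with a median of 0.24, and after a repeat quantile normalization 5 rose and 2 fell. How the exons of CD44 were joined was not analysed here.

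CD24, a ligand of P-selectin and Siglec-10, ran opposite to CD44. Its level was 7.53, 7.31 and 7.53 in the SW480 arrays and 10.43, 10.41 and 10.30 in the SW620 arrays. All SW620 arrays stood above all SW480 arrays, with 2.77 between the nearest. From 7.46 ± 0.127 (SD, n = 3) to 10.38 ± 0.0721 (n = 3) the difference was 2.92 (standard error 0.0914, 95% interval 2.73 to 3.12), a 7.59-fold rise with an adjusted p of 6.36e-11 in limma. It had the 27th largest rise of all genes and was well above the median feature in both lines. CD24 has near-identical copies elsewhere in the genome, and which of them the feature reads is uncertain. CD44 and CD24 are often read as a pair in sorting, and in RNA SW480 spheroids were the higher of the lines for CD44 and the lower for CD24. Of 29 genes that build or remodel the GPI anchor, 6 were measured and none passed limma's test, against 35.6% of all genes. Nor did any have an unadjusted p below 0.05 (0 of 6). Most of this list was not measured, so the count says little about it. The lowest p was that of PGAP2 (difference 0.17, adjusted p = 0.242).

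PROM1, which encodes CD133, was near the floor of the array in SW480 and clearly above it in SW620. Its level was 3.47, 3.62 and 3.65 in the SW480 arrays and 6.02, 5.92 and 5.93 in the SW620 arrays. The groups were 2.27 apart at their nearest arrays. The means were 3.58 ± 0.0940 (SD, n = 3) and 5.96 ± 0.0557 (n = 3), a difference of 2.38 (standard error 0.0856, 95% interval 2.19 to 2.56) or 5.20-fold, with an adjusted p of 2.48e-10 in limma. The SW480 mean was close to the 25th percentile feature (3.53), where RMA understates differences, so the fold is uncertain. PROM2, the other prominin gene, which is on none of the lists and was looked up after the values were seen, was at 4.62 in SW480 and 4.51 in SW620, a difference of -0.11 (adjusted p = 0.431).

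EPCAM, the epithelial adhesion molecule used to pick out tumour cells before CD44 and CD166 are read, was the member that did not pass the test. Its level was 9.81, 9.67 and 9.67 in the SW480 arrays and 9.55, 9.55 and 9.72 in the SW620 arrays. The arrays overlapped, since SW620 replicate 3 lay above a pair of SW480 arrays. The means were 9.71 ± 0.0796 (SD, n = 3) and 9.61 ± 0.0979 (n = 3). The difference was -0.11, and its 95% interval of -0.30 to 0.0837 (adjusted p = 0.393 in limma) leaves room for a modest fall or a slight rise. Both means were brighter than over 97% of features (97.9% in SW480 and 97.7% in SW620).

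CLDN7, the claudin that binds EpCAM directly, fell by 3.89 on the log2 scale, from 8.22 ± 0.0430 (SD, n = 3) to 4.33 ± 0.188 (n = 3). A list of tetraspanins in general together with CLDN7 and surface proteases and their inhibitors had 22 measured genes, of which 12 fell, 5 rose and 5 did not pass. Of this list 77.3% were called, against 35.6% of all genes, and the median was -0.32. The tetraspanin TSPAN5, which helps the protease ADAM10 to the cell surface, fell by 1.39, and TSPAN15, another carrier of ADAM10, rose by 1.22. CD9, a tetraspanin that joins EpCAM in membrane patches, fell by 0.54. A list of sheddases and gamma-secretase genes, some of which shed EpCAM, CD44 or ALCAM, had 15 measured genes. Of these 4 rose and 4 fell (53.3% called, against 35.6% of all genes). Of the 15, 0 were below the median feature in both lines. Their share is near that of all genes with dim ones left out (5059 of 9475). ADAM17, a sheddase of EpCAM, CD44 and ALCAM, fell by 1.22, the protease BACE2 fell by 0.94 and ADAM10 rose by 0.73.

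ALCAM, which binds itself on a neighbouring cell and CD6 on T cells, gave the weakest of the 6 calls. Its level was 3.67, 3.50 and 3.92 in the SW480 arrays and 4.04, 4.27 and 3.93 in the SW620 arrays. The lines barely separated, with 0.00223 between SW480 replicate 3 and SW620 replicate 3. The means were 3.70 ± 0.215 (SD, n = 3) and 4.08 ± 0.173 (n = 3), a difference of 0.38 (standard error 0.119, 95% interval 0.12 to 0.64) or 1.30-fold, with an adjusted p of 0.0241 in limma. The call rests on single arrays: the adjusted p was 0.0630 without SW480 replicate 1 (difference 0.37), 0.113 without SW480 replicate 2 (0.28) and 0.108 without SW620 replicate 2 (0.29). The SW480 SD of ALCAM exceeded that of 93.3% of genes, and both means were near or below the median feature. Of 26 other measured immunoglobulin-type adhesion molecules 3 rose, 9 fell and 14 did not pass, with a median of -0.0516. The 46.2% called stand beside 35.6% of all genes, and 8 of the 26 were below the median feature in both lines. NRCAM, an L1-type molecule of nerve cells, rose by 3.25, CNTN1, a contactin, fell by 3.21 to a level (3.50) below the 25th percentile feature, and CADM1, a cell adhesion molecule of epithelia and synapses, fell by 2.16.

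AMIGO2 had the largest difference of the 7. Its level was 3.84, 3.87 and 3.63 in the SW480 arrays and 7.55, 7.77 and 7.53 in the SW620 arrays. Each SW620 array exceeded each SW480 array by at least 3.66. The means were 3.78 ± 0.129 (SD, n = 3) and 7.62 ± 0.130 (n = 3), a difference of 3.83 (standard error 0.0983, 95% interval 3.62 to 4.05, adjusted p = 1.22e-11 in limma). This was the 9th largest rise of all genes and a 14.3-fold one, which is uncertain because the SW480 mean was below the median feature. Of the family's other members, AMIGO3 rose by 0.40 and AMIGO1 fell by 0.44, both on dim features, and they are named here after their values were seen. Of 24 measured leucine-rich repeat membrane proteins 3 rose, 6 fell and 15 did not pass, and the 37.5% called are close to the 35.6% of all genes. Of the 24, 16 were below the median feature in both lines. LRRTM1, a synapse organiser, rose by 3.25, LRRN4 fell by 1.89, and FLRT3, a ligand of latrophilins and UNC5 receptors, fell by 1.32. LRRTM1 in SW480 (3.15) and FLRT3 in SW620 (3.38) were below the 25th percentile feature, so these sizes are uncertain.

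DCLK1 fell to the floor of the array in SW620. Its level was 5.34, 5.42 and 5.52 in the SW480 arrays and 3.23, 3.13 and 3.02 in the SW620 arrays. The lines were 2.11 apart at the nearest arrays. The means were 5.43 ± 0.0937 (SD, n = 3) and 3.13 ± 0.104 (n = 3), a difference of -2.30 (standard error 0.0903, 95% interval -2.49 to -2.10, adjusted p = 5.29e-10 in limma). The SW620 mean was brighter than 5.47% of features, so the 4.92-fold fall may be understated. Of 18 measured relatives of DCLK1 and tuft cell genes 16 did not pass, and 13 were below the median feature in both lines. The share called was 11.1%, against 35.6% of all genes. POU2F3, the factor that sets tuft identity, differed by 0.0388 (adjusted p = 0.856) and DCLK2 by -0.14 (adjusted p = 0.228). The genes of this list that passed were KCTD12, which fell by 1.28, and IL17RB, the receptor for the cytokine IL-25, which rose by 1.11.

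**Figure D2:**
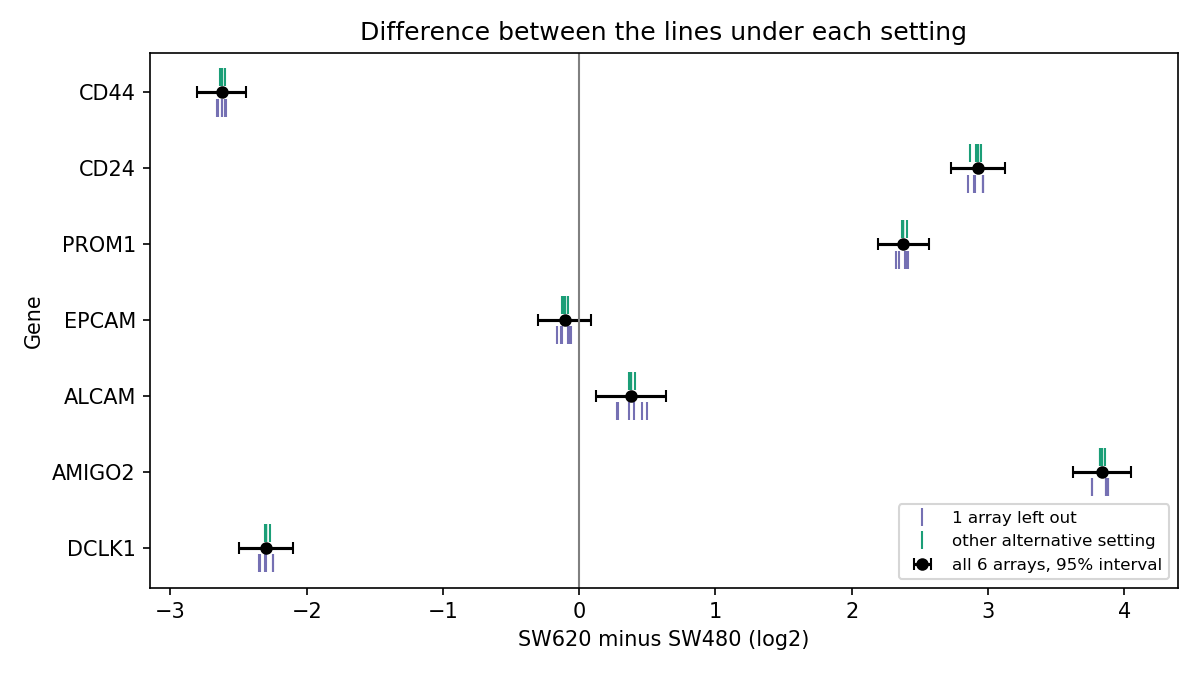
SW620 minus SW480 on the log2 scale (horizontal axis) for each of the 7 genes (vertical axis); black points and bars are the difference and its 95% interval from all 6 arrays, purple ticks the differences with 1 array left out and green ticks those under the other settings. The intervals of CD44 and DCLK1 lie left of 0, those of CD24, PROM1, AMIGO2 and ALCAM right of it, and that of EPCAM spans it.

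Within a line the markers showed no array that was high or low for all of them. The deviations of single arrays from the mean of their line ran from -0.20 to 0.23 on the log2 scale in SW480 and from -0.15 to 0.19 in SW620. SW620 replicate 3 was below its line's mean for 6 of the 7 genes, the most uneven of the arrays, and SW480 replicate 3 was above it for 5. For the 5 genes with differences above 4-fold, the difference was 22.1 to 38.7 times the larger SD of the lines. For ALCAM it was 1.77 times and for EPCAM 1.10 times.

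**Figure D3:**
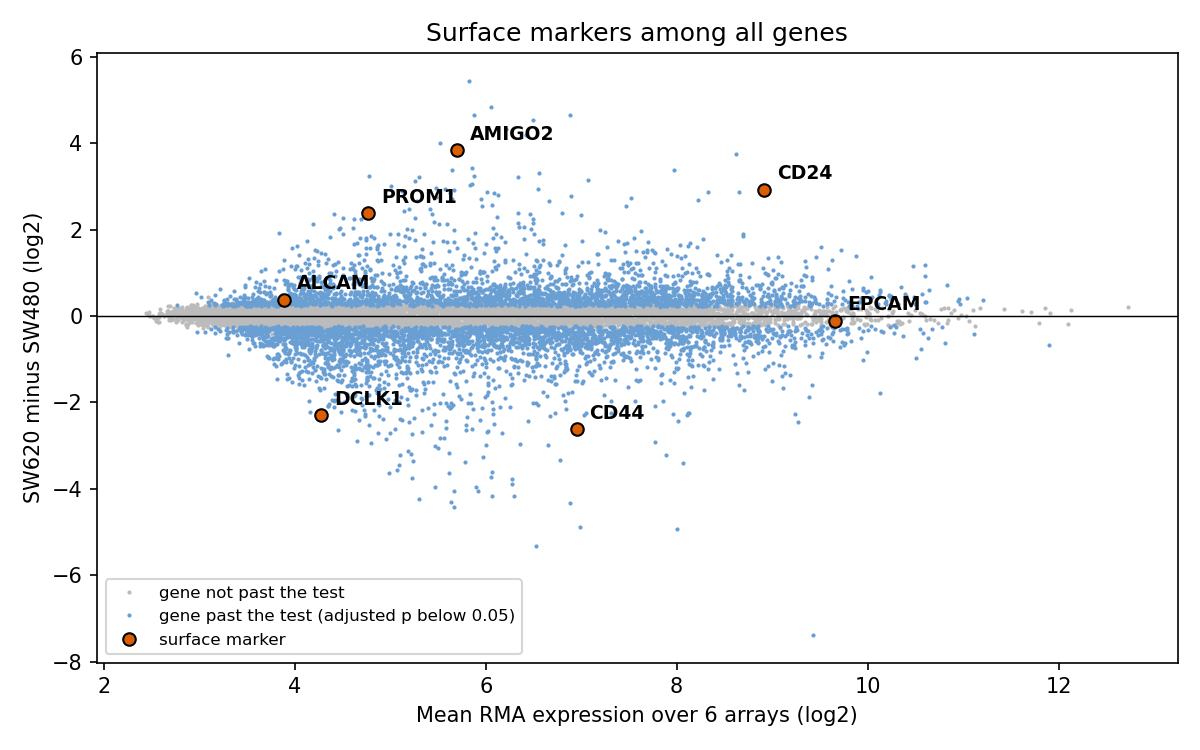
SW620 minus SW480 on the log2 scale (vertical axis) against the mean RMA expression over the 6 arrays (horizontal axis, log2) for 14884 genes; blue points passed limma's test, grey points did not, and orange points are the 7 genes. AMIGO2, CD24 and PROM1 lie at the upper edge of the cloud, CD44 and DCLK1 at its lower edge, and EPCAM inside it.

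The other genes proposed as markers of colorectal tumour-initiating cells also split. Of 28 listed, 17 were measured, 4 rose, 7 fell and 6 did not pass, with a median of -0.19 and 64.7% called, against 35.6% of all genes. The largest differences were those of the chemokine receptor CXCR4 (-3.61), the crypt stem cell receptor LGR5 (3.16) and the transcription factor SOX2 (2.88). CD47, the signal that restrains phagocytes, fell by 0.50, and DPP4, the peptidase also called CD26, fell by 0.85; both are named after their values were seen.

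**Figure D4:**
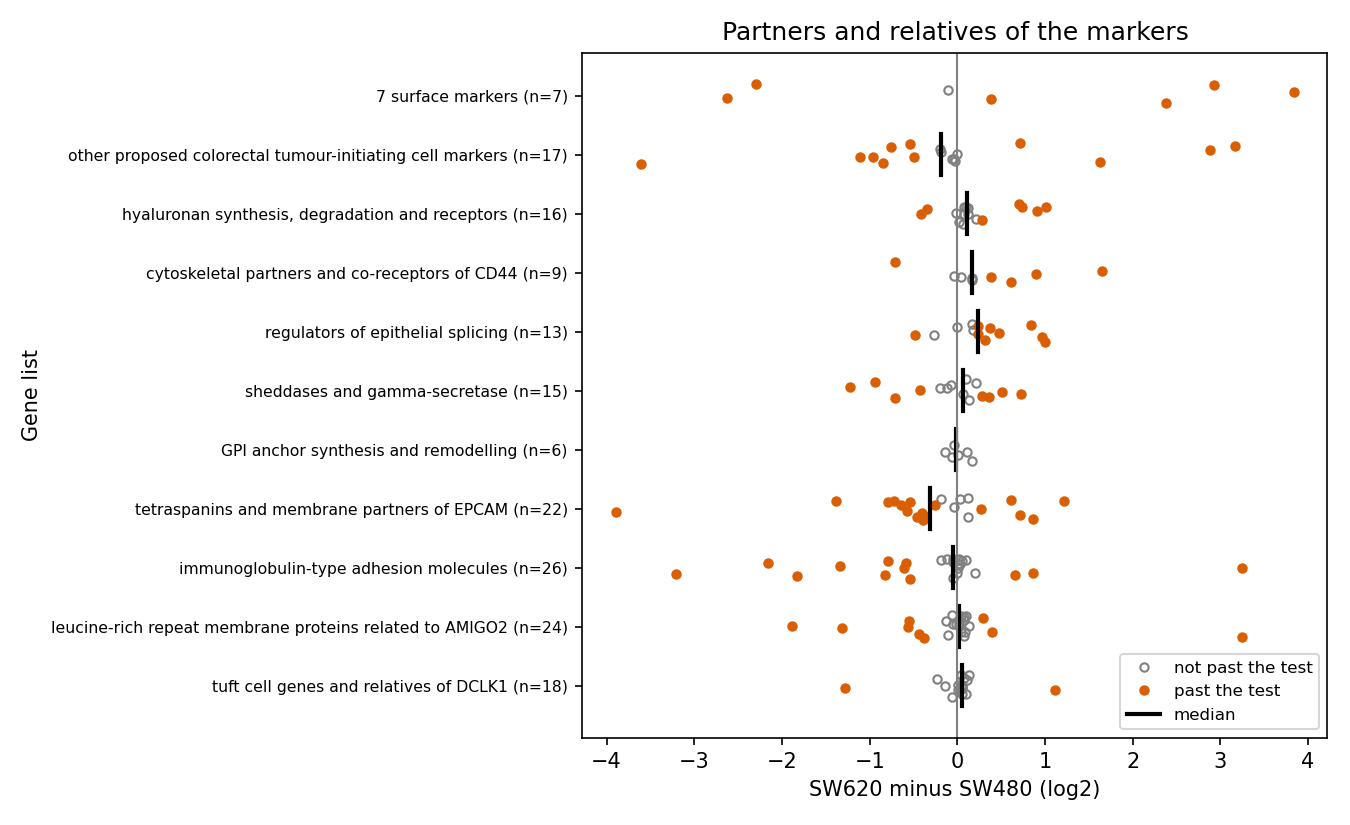
SW620 minus SW480 on the log2 scale (horizontal axis) of each measured gene in 10 lists of partners and relatives, with the 7 markers in the top row (vertical axis); filled points passed limma's test, open points did not, and black bars are list medians. The 7 markers spread from -2.62 to 3.83, and single genes of the lists from -3.89 (CLDN7) to 3.25 (LRRTM1). The medians of the lists lie between -0.32 and 0.24.

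By the profile over the 6 arrays, each gene centred on its own mean and compared by root mean square distance on the log2 scale, the nearest genes to CD24 were EHF (0.0595), an epithelial ETS factor, PLLP (0.0632) and MIR4500 (0.0682). Nearest to CD44 were IL31RA (0.0714), IGFBP7 (0.0731) and AGTPBP1 (0.0743). PROM1 lay nearest to RNF148 (0.0847), ST18 (0.105) and TNS3 (0.12), and DCLK1 to NLK (0.0644), DHRS2 (0.0654) and TSPAN2 (0.0740). AMIGO2 had no gene so close, and its nearest were EFNB2 (0.165), CADPS2 (0.189) and MFNG (0.191). ALCAM was nearest to DMRTC1 (0.0739), MIR4482 (0.0783) and HPS3 (0.0791). With 2 lines this distance mostly reflects how large the difference between them is.

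The members lie on 7 different chromosomes. For each, the 10 nearest measured protein-coding genes, 5 on either side, were looked up after the values were seen. The counts below are of genes past limma's test, which 16.0% of all genes passed as higher and 19.5% as lower. Around EPCAM on chromosome 2, 7 of the 10 fell and none rose, with a median of -0.41, while EPCAM itself differed by -0.11. Around DCLK1 on chromosome 13, 4 fell and none rose (median -0.23). Around CD44 on chromosome 11, 4 rose and 2 fell (median 0.13), and the largest rise there was that of EHF (2.94), the gene nearest in profile to CD24. Of the neighbours of CD24 on chromosome 6, 4 rose and 2 fell (median 0.22), and of those of PROM1 on chromosome 4, 3 rose and 0 fell (median 0.19). Around ALCAM on chromosome 3, 3 rose and 2 fell (median 0.14). Around AMIGO2 on chromosome 12, 2 rose and 3 fell (median -0.0301), and 1 of them, NELL2, fell by 5.32, a larger difference than that of AMIGO2 and in the opposite direction.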

How the data were processed

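Total RNA of the spheroids was hybridised as biotin-labelled sense-strand cDNA to 6 arrays, 3 per line, per the labels' protocols. The deposited log2 expression values came from RMA in or beside Partek, which the submitters' processing notes name with no version or setting. No source gives the base of the logarithm; the range of the values fits 2, and all folds assume it. Scanner intensities were not used here, and RMA's background step was therefore not varied.

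Of 53616 features, 16098 had exactly 1 gene symbol in the platform annotation, 0 had several and 37518 had none here; all 16098 matched RefSeq (GRCh38.p14). Each of 14884 genes was represented by its brightest feature on average (779 had more than 1). SW620 was set against SW480 by limma 3.58.1 (R 4.3.3; lmFit, then eBayes; two-sided, no covariates, Benjamini-Hochberg over all genes, threshold 0.05), with moderated standard errors and 95% intervals. The fit was tested on simulated data, with 50 genes changed at each size. It recovered 29 of them at a log2 difference of 0.5, 47 at 1 and all 50 at 2 and at 3. Of 182 genes called there, 6 were false. With 3 arrays per line, precision is limited.

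The 7 members and the lists were chosen with earlier results of these data known. Named genes are the members, up to 3 called genes with the largest difference per list (or that with the smallest p), the 3 nearest profiles per called member, and genes said to be named after their values were seen, which include other list members given with values. Alternatives were 3 scalings, 2 filters on dim genes, a trended and robust variance, the mean of a gene's features, treat at 1.2-fold, the replicate number as a block and leaving out each array.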

Additional observations from a re-analysis of the deposited data

How the results depend on the processing

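CD44, CD24, PROM1, DCLK1 and AMIGO2 kept their direction and passed the test under all 14 alternatives that gave a difference, and EPCAM passed under none (adjusted p from 0.204 to 0.698, differences from -0.16 to -0.0617). The filters, the variance option, the replicate block and, with 1 feature per member, the mean of features cannot change a member's difference. They vary only its p, and direction was open only under the scalings and with arrays left out. ALCAM kept its direction under 13 alternatives and passed under 10. With single arrays left out its difference ran from 0.28 to 0.49, with an adjusted p up to 0.113. It was not tested when genes below the median feature were left out, and it did not pass a test against a minimum of 1.2-fold, in which 5 members passed. That test called 2465 genes in all, 1005 higher and 1460 lower, against 5293 (2388 higher and 2905 lower) in the ordinary test. Centring on the 75th percentile feature gave 2686 higher and 2685 lower. The count of listed genes called ran from 70 to 83, against 78. The medians of the GPI anchor list (-0.0153) and of the leucine-rich repeat list (0.0159) change sign with the scaling. Same-numbered arrays of the lines did not deviate together (r from -0.0234 to -0.00889 across 14884 genes), so the numbers were not taken as pairs; with the replicate number as a block, 5215 genes and the same number of members, 6, were called, with ALCAM at an adjusted p of 0.0340. Features near the floor limit PROM1, AMIGO2 and ALCAM in SW480 and DCLK1 in SW620.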
